A study of Mus musculus with 30 samples.

Results

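The MHC class II presentation genes described here are 7 of the 48709 genes in the deposited count tables: H2-Aa, H2-Ab1, H2-Eb1, H2-DMa, H2-DMb1, Cd74 and Ciita. They were chosen by name, as the rows whose Ensembl gene identifier maps to these mouse symbols. All 7 were found and all 7 passed the filter on low counts in every tissue. Bulk RNA of 5 tissues (spleen, kidney, liver, muscle, brain) was sequenced in adult animals of the C57BL/6 strain. Each tissue has 3 libraries labelled WT, the controls, and 3 labelled as Ctcf haploinsufficient (Ctcf+/-), which makes 30. Ctcf+/- animals carry 1 working copy of Ctcf, which encodes a DNA-binding protein that shapes chromatin loops. The series asks how Ctcf haploinsufficiency alters transcripts, intron retention in particular, from tissue to tissue. Tissue homogenates were used, so fewer cells of a type and less RNA per cell cannot be told apart. No label says which libraries came from the same animal, and p-values measure the spread between these libraries.

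Class II molecules carry peptides from engulfed material to the surface of B cells, dendritic cells and macrophages, where helper T cells read them. An alpha and a beta chain assemble in the endoplasmic reticulum on the invariant chain, Cd74. Cd74 is then cut down in endosomes, and the H2-DM heterodimer exchanges its last fragment for an antigenic peptide. The coactivator Ciita binds no DNA itself. It joins RFX, CREB and NF-Y proteins that sit on the X and Y boxes of class II, H2-DM and Cd74 promoters, and its own level is known to set whether a cell makes class II. C57BL/6 mice do not express the E alpha chain, so in this strain H2-Eb1 transcripts have no partner chain of their own isotype.

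H2-Aa (ENSMUSG00000036594, the alpha chain of I-A) lies on chromosome 17, 34282744 to 34287827, minus strand, in the GRCm38 coordinates of the count tables. H2-Ab1 (ENSMUSG00000073421, its beta chain) spans 34263209 to 34269418 and H2-Eb1 (ENSMUSG00000060586, the E beta chain) 34305877 to 34316199 on the plus strand of the same chromosome. H2-DMa (ENSMUSG00000037649) at 34135182 to 34139101 and H2-DMb1 (ENSMUSG00000079547) at 34153072 to 34160230 encode the H2-DM chains, both on the plus strand of chromosome 17. Cd74 (ENSMUSG00000024610) is the only member besides Ciita that lies outside this cluster. Ciita (ENSMUSG00000022504) lies on chromosome 16, 10488178 to 10527564, plus strand, with 5254 exonic bases against 1184 to 1874 in the other 6 genes. In the annotation used for counting, Ciita shared 111 exonic bases (2.11% of its length) with the antisense gene Dexi and Cd74 shared 12 with Mir5107. Reads falling there could not be assigned. H2-DMb1 has a close copy, H2-DMb2, and reads that matched both equally well were not counted, so the levels of the pair are less certain than those of the other genes.

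Promoter sequences are shown for the X and Y box cores that class II loci share. RefSeq windows of 250 bases before to 50 after a start (GRCm38.p6) were at hand for 4 of the 7 genes. In 3 of them, H2-Eb1, H2-Aa and H2-DMa, the stretch from 120 to 11 bases before the start reads as follows on the gene's strand. Capitals mark an X box core (AGNNACNGA) followed by a Y box core (ATTGG) in H2-Eb1, the Y box core in H2-Aa, and every CG in H2-DMa. The H2-DMa stretch belongs to a RefSeq start that lies before the counted gene model, as given below.
H2-Eb1, chr17:34305747-34305856, plus strand: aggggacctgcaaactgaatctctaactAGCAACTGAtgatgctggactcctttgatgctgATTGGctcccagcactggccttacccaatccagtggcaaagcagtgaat
H2-Aa, chr17:34287834-34287943, minus strand: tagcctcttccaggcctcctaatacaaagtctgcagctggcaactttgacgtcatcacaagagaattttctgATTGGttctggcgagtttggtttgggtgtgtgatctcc
H2-DMa, chr17:34122712-34122821, plus strand: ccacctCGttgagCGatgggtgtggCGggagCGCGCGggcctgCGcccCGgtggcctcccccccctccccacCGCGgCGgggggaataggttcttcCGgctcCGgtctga

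Searched on both strands, the X core occurred in 17.7% of all 32851 RefSeq windows of 300 bases, the Y core in 37.4%, and an X core followed by a Y core with 10 to 30 bases between in 0.228%. H2-Eb1 held such a pair with 24 bases between the cores, and H2-DMb1 held 1 as AGTAACTGA and ATTGG with 25 bases between. The pair was also present in H2-Eb2, with 24 bases between. H2-Aa held the Y core alone. Of the H2-DMa windows, the printed one (chr17:34122582-34122881 in full) held neither core, was 73% G and C and had 29 CG dinucleotides, against 0 to 3 in every other class II window searched. The other H2-DMa window (34125268 to 34125567) held a Y core and no CG. Both H2-DMa windows, which end at 34122881 and 34125567, lie upstream of the gene model that was counted, whose first exon starts at 34135182. No window at that start was searched, so neither H2-DMa window describes the promoter of the counted model. The counts do not show which start was used. A match to these letters is a description of the window, not a binding site. The lack of a match, as for the X core in H2-Aa, does not show that the promoter lacks that box.

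Library depth was 49819907 to 131645999 counted fragments. Levels below are CPM, counts scaled to a common library size, after trimmed-mean (TMM) scaling over the 30 libraries. The scaling factors ran from 0.56 to 0.73 in liver and 0.60 to 0.64 in muscle, where a few genes take much of the RNA, against 1.24 to 1.57 in the other tissues. Without it, every gene in liver and muscle would read lower by 1.02 to 1.19 on the log2 scale against the other tissues. Ctcf itself checked the labels: its Ctcf+/- mean was 61.5% to 68.1% of the WT mean in the 5 tissues, and the groups did not overlap in any. Each tissue carried its own markers (summed brain markers 5347 to 5946 CPM in brain and at most 92.2 elsewhere, for example). Traces of other tissues moved with genotype in spleen, where 5 kidney markers summed to 0.117 to 0.291 CPM in WT and 6.94 to 14.4 in Ctcf+/- libraries, and 5 liver markers to 22.1 to 27.9 and 0.0489 to 0.201. In muscle the kidney markers summed to 13.6 to 102 CPM in WT and 0.16 to 8.18 in Ctcf+/- libraries, again without overlap. The part of these traces in the spleen and muscle results was not tested. Spleen WT replicate 1 and Ctcf+/- replicate 2 stood apart from the other 4 spleen libraries, as described with the spleen values.

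Across tissues, the WT means of all 7 genes were highest in spleen, followed by kidney and then liver. In the Ctcf+/- means, H2-DMa was higher in brain (9.81 CPM) than in liver (7.43). H2-Aa had mean levels of 1207 ± 262 CPM in WT spleen (SD, n = 3), 103 ± 15.5 in kidney and 62.1 ± 25.7 in liver. Muscle, at 15.8 ± 6.14, and brain, at 1.74 ± 0.174, were lower. H2-Ab1 and H2-Eb1, the beta chains, had the same order of tissues, from 1291 and 1199 CPM in WT spleen down to 1.57 and 2.06 in WT brain. Cd74 spans 60803848 to 60812646 of chromosome 18 on the plus strand. Its WT level was 3504 ± 742 CPM in WT spleen, 213 in kidney and 160 in liver, against 39.5 in muscle and 4.66 in brain. The ratio of the WT means of spleen and brain was 693 for H2-Aa, 821 for H2-Ab1, 582 for H2-Eb1, 753 for Cd74, 261 for Ciita, 81.9 for H2-DMb1 and 16.9 for H2-DMa. Per kilobase of exon, the WT spleen order was Cd74 (2485 CPM per kb), H2-Eb1 (1013), H2-Ab1 (789), H2-Aa (644), H2-DMa (91.9), H2-DMb1 (63.1) and Ciita (22.2). Cd74 led per kilobase in every tissue but brain, where WT H2-DMa stood at 5.44 CPM per kb and Cd74 at 3.30.

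**Figure D1:**
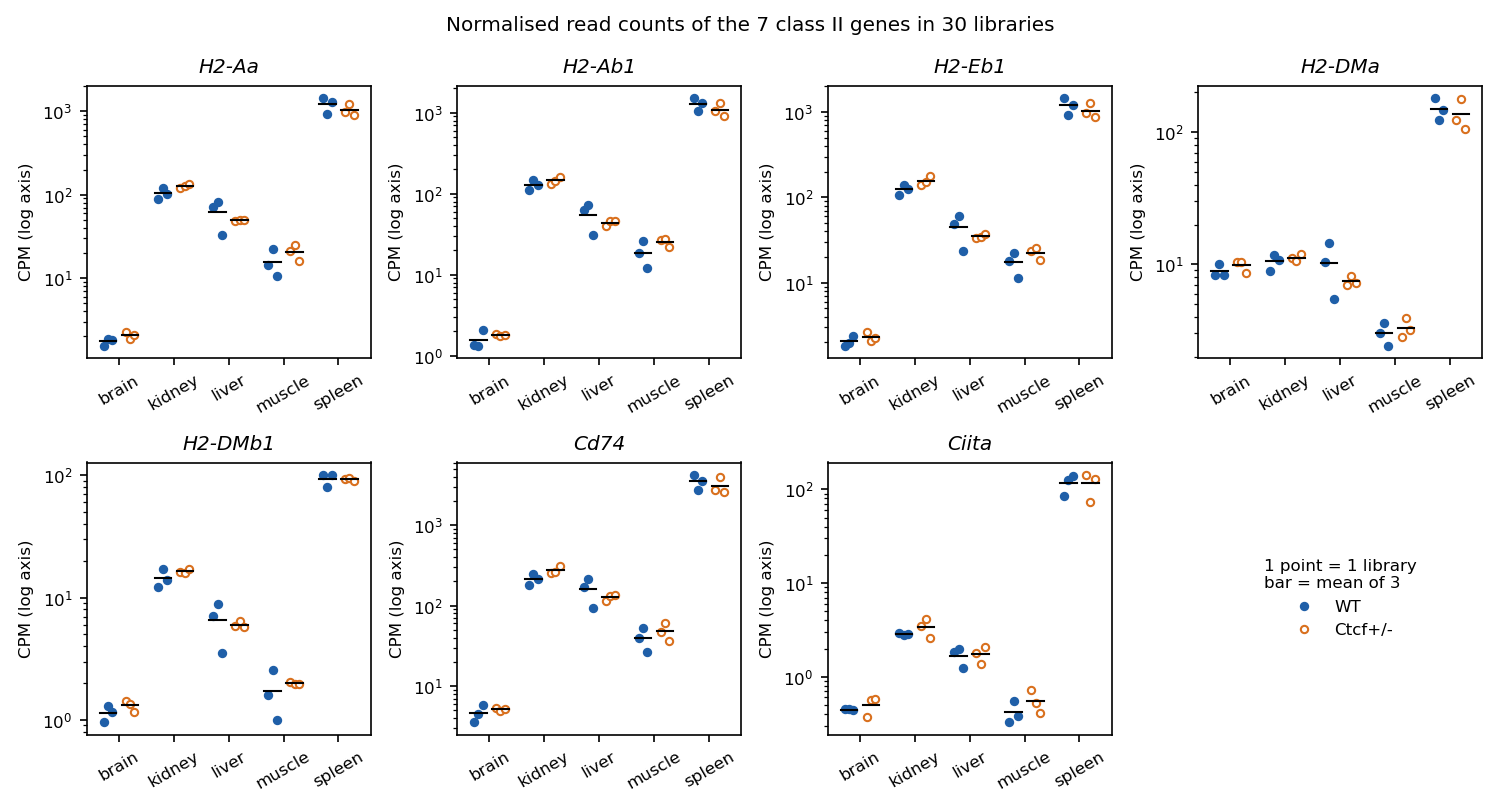
Normalised read counts (CPM, log axis) of the 7 class II genes in each of 30 libraries, by tissue. Filled points are WT and open points Ctcf+/- libraries, and bars are means of 3; every gene peaked in spleen, and H2-DMa alone stood near its kidney and liver level in brain.

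The tissue differences were tested among the 15 WT libraries with edgeR's quasi-likelihood test and Benjamini-Hochberg adjustment over 22933 genes. All 7 members were higher in spleen than in each other tissue (adjusted p under 0.05), where 37.0% of all genes tested were higher in spleen than in brain, 36.3% than in kidney, 37.7% than in liver and 38.1% than in muscle. The spleen excess over kidney, the next tissue in the order, ran from 2.67 on the log2 scale (SE 0.32) for H2-DMb1 to 5.32 (SE 0.22) for Ciita. All 7 were higher in kidney than in muscle (35.9% of all genes were) and all 7 higher in liver than in muscle (31.9%).

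Kidney and liver were less clearly ordered. Kidney was above liver in 4 of 7 members, against 29.4% of all genes: H2-Eb1 by 1.52 (SE 0.31, adjusted p 0.000739), H2-Ab1 by 1.25, H2-DMb1 by 1.18 and Ciita by 0.80 on the log2 scale, in the edgeR fit. H2-Aa (0.76, adjusted p 0.0522), Cd74 (0.44, adjusted p 0.251) and H2-DMa (0.08, adjusted p 0.822) did not pass the same test. Under scaling by total counts, and in the Ctcf+/- libraries with the standard scaling, the count was 7 of 7. Total counts move every gene toward kidney by 1.02 on the log2 scale. The share of all genes was not computed for either setting, so 7 of 7 cannot be set against the 29.4%. WT liver varied widely: Cd74 read 170, 216 and 93.1 CPM in the 3 libraries and H2-Aa 71.6, 81.8 and 33.0, and replicate 3 was the lowest of the 6 liver libraries for all 7 members. The log2 difference of H2-DMa turned to -0.20 without that library.

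Brain was lowest for most members, and the exceptions were H2-DMa and, beside muscle, Ciita and H2-DMb1. Kidney exceeded brain in 6 of 7 members (36.0% of all genes) and liver exceeded brain in 6 of 7 (33.3%), H2-DMa being the exception both times. Against muscle, 4 members were lower in brain (32.5% of all genes were higher in muscle) and 1, H2-DMa, was higher in brain by 1.49 (SE 0.27, adjusted p 0.000187, edgeR), as were 39.9% of all genes. Ciita stood at 0.446 ± 0.00855 CPM in WT brain and 0.421 ± 0.119 in WT muscle, a fitted log2 difference of -0.00 with a 95% interval from -0.56 to 0.55. H2-DMb1 differed by -0.67 between them (adjusted p 0.0914, edgeR). The sign of the Ciita and H2-DMb1 differences depended on scaling: with total counts they read 1.26 and 0.59. So did that of H2-DMa between brain and liver, at -0.10 in the edgeR fit and 1.04 with total counts.

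H2-DMa and H2-DMb1 encode partner chains, but their transcripts did not keep a fixed ratio. In brain, H2-DMa read 8.31, 10.1 and 8.35 CPM in WT and 10.5, 10.5 and 8.52 in Ctcf+/- libraries. H2-DMb1 in the same libraries read 0.957, 1.31 and 1.17, then 1.43, 1.34 and 1.16 CPM. The genotypes overlapped for both genes, and H2-DMa was the higher chain per kilobase in all 6 libraries. Kidney showed the reverse order per kilobase, with H2-DMa at 8.95, 11.8 and 10.8 CPM in WT and H2-DMb1 at 12.2, 17.3 and 13.9. Brain and kidney H2-DMa levels differed by -0.18 on the log2 scale, with a 95% interval from -0.74 to 0.37, while H2-DMb1 differed by -3.60 (SE 0.35). Per kilobase, the ratio of H2-DMa to H2-DMb1 was 6.94 ± 0.508 in brain (SD, n = 6) but 0.638 ± 0.0405 in kidney. It was intermediate in muscle (1.61 ± 0.368), spleen (1.39 ± 0.239) and liver (1.26 ± 0.167). H2-DMb2, the second H2-DM beta gene, is not part of this ratio. Its mean was 264 CPM in spleen, above H2-DMb1 (93.2), and 1.59 in kidney, below H2-DMb1 (15.5). The order of tissues thus holds for H2-DMb1 alone, not for all beta chain transcripts. Scaling between libraries cancels in this ratio. Exact two-sided permutation tests over 6 against 6 libraries of both genotypes gave 0.00216, the smallest p they allow, for brain and for kidney against every other tissue (adjusted p 0.00309 over 20 ratio comparisons). Liver, muscle and spleen did not pass it against each other (adjusted p 0.0779 to 0.351, exact permutation). In liver, the ratio was 1.34 to 1.47 in WT and 1.07 to 1.14 in Ctcf+/- libraries, which do not overlap. An exact permutation test of 3 against 3 libraries cannot go below p = 0.1. In kidney, Ctcf+/- values lay above WT for the ratios of Cd74 (1.87 to 1.95 in WT, 2.17 to 2.26 in Ctcf+/-), H2-Eb1 (1.32 to 1.38, then 1.467 to 1.497) and H2-Aa (0.69 to 0.713, then 0.726 to 0.795) to H2-Ab1. These 4 were picked after seeing which ratios separate the genotypes. The ratios compared were H2-DMa to H2-DMb1, Ciita to H2-Aa, and Cd74, H2-Eb1 and H2-Aa to H2-Ab1, each in every tissue. In all the remaining comparisons the genotypes overlapped. With no genotype effect, each comparison separates with a probability of 0.1, so some separations are expected among them. The 3 kidney ratios share H2-Ab1 as denominator and are not independent.

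The same tests were run on the Ciita transcript per 100 H2-Aa transcripts, per kilobase. The ratio was 8.97 ± 1.75 in brain, 3.91 ± 1.45 in spleen, 1.15 ± 0.262 in liver, 0.979 ± 0.194 in kidney and 0.977 ± 0.224 in muscle (SD, n = 6). Brain stood above every other tissue and spleen above kidney, liver and muscle (p = 0.00216, adjusted p 0.00309 each, exact permutation). Kidney, liver and muscle did not pass the same test against each other (adjusted p 0.298 to 0.965). In brain, the ratio rests on 0.372 to 0.571 CPM of Ciita and 1.54 to 2.26 CPM of H2-Aa. In spleen it was 2.12 in WT replicate 1 and 2.18 in Ctcf+/- replicate 2, and 3.83 to 5.25 in the remaining libraries. That pair of libraries also differs from the rest by transcript length, as described with the spleen values. The part of length in this ratio was not tested. The H2-Aa to H2-Ab1 ratio, alpha to beta chain of I-A, stayed between 0.641 and 1.23 in all 30 libraries, and Cd74 to H2-Ab1 between 1.87 and 3.99.

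**Figure D2:**
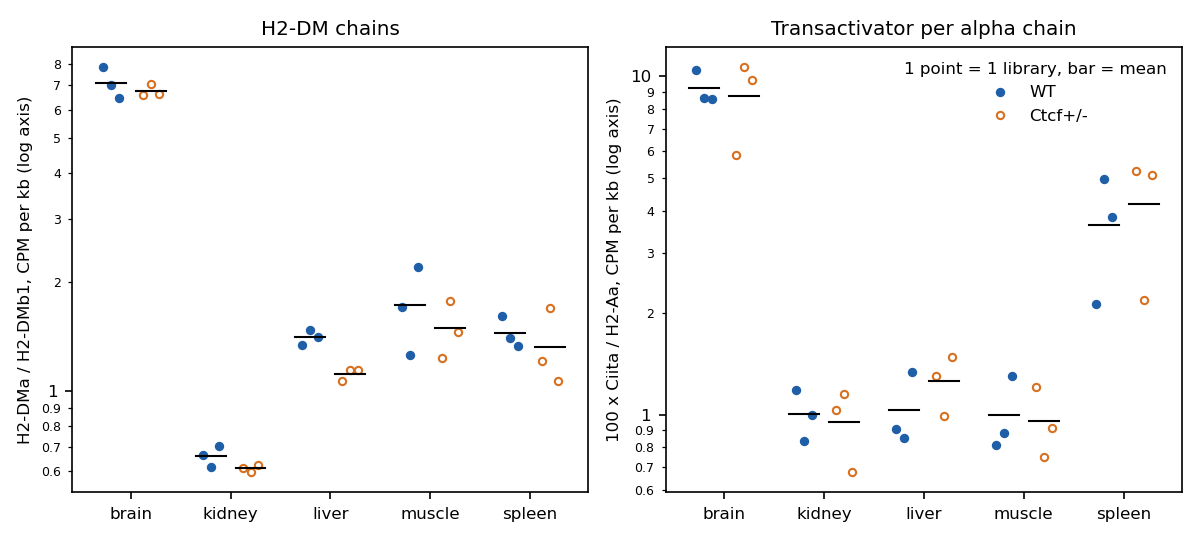
Ratios of CPM per kilobase in each library (log axes): H2-DMa to H2-DMb1 on the left, and Ciita per 100 H2-Aa on the right. Filled points are WT, open points Ctcf+/- libraries and bars means of 3; the H2-DM ratio lies between 6.47 and 7.86 in brain and at most at 2.21 elsewhere, and at most at 0.707 in kidney.

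Genotype changed no member past the threshold. Within each tissue, edgeR's quasi-likelihood test (3 against 3 libraries, Benjamini-Hochberg over all genes tested) called 0 of 7 members at adjusted p under 0.05 in spleen (0.242% of all genes called), muscle (0.0249%), kidney (0.0211%), liver (0.0193%) and brain (0.0157%). The counts at unadjusted p under 0.05 were 3 of 7 in kidney (6.44% of all genes) and 0 in spleen (3.52%), muscle (6.45%), liver (4.56%) and brain (2.96%). These unadjusted counts moved with single libraries. Liver went from 0 to 5 without WT replicate 3, and muscle from 0 to 3 without WT replicate 2. Kidney went from 3 to 4 without WT replicate 2, and brain from 0 to 1 without WT replicate 3. The share of all genes was not computed for fits with a library left out, so these counts cannot be set against it. DESeq2 and limma-voom also called 0 in every tissue. In a fit of all 30 libraries, a genotype effect that differs between tissues was called for 0 members (0.758% of all genes; at unadjusted p, 0 members and 6.66% of all genes). A genotype effect shared by the tissues was called for 0 (0.194%; unadjusted, 0 and 5.91%), with differences of -0.05 to 0.15 on the log2 scale. The tests leave room for sizeable differences, as the intervals below show.

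**Figure D3:**
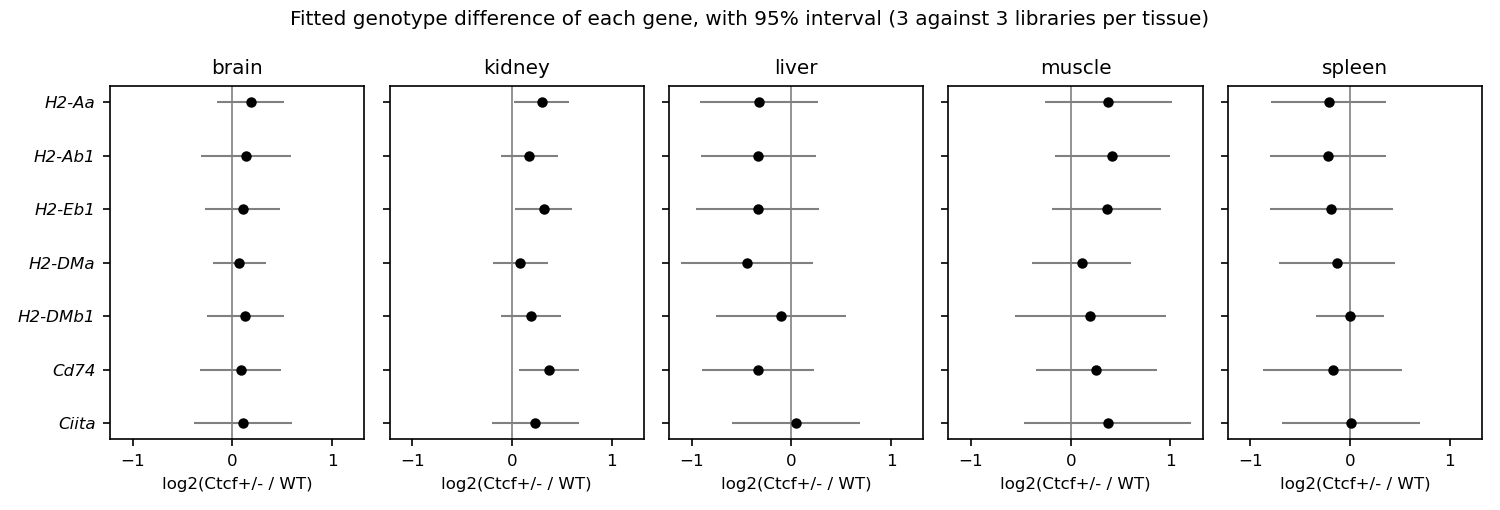
Fitted log2 difference between Ctcf+/- and WT for each gene in each tissue (points), with its 95% interval (lines), from 3 against 3 libraries. Most intervals cross 0; the exceptions are H2-Aa, H2-Eb1 and Cd74 in kidney, before adjustment for the number of genes tested.

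In kidney all 7 members had positive differences, with a median of 0.24 on the log2 scale against 0.00 over all 18937 genes tested. Cd74, the invariant chain, read 181, 245 and 213 CPM in WT and 256, 266 and 308 in Ctcf+/- kidney. Its 3 Ctcf+/- values lay above all WT values, a difference of 0.37 (SE 0.13, 95% interval 0.07 to 0.67, adjusted p 0.638, edgeR). H2-Eb1 read 108, 139 and 127 CPM, then 142, 151 and 176, again without overlap (0.32, SE 0.12, adjusted p 0.696, edgeR). H2-Aa read 88.5, 119 and 102 CPM, then 120, 127 and 136 (0.30, SE 0.12, adjusted p 0.728, edgeR). Its highest WT and lowest Ctcf+/- library were within 1 CPM of each other, and they overlapped on the scale of the kidney fit. Ctcf+/- libraries all above WT were thus seen for 2 of 7 members on that scale, and for 6.15% of all genes. H2-Ab1 (0.18), H2-DMb1 (0.19), H2-DMa (0.08) and Ciita (0.24) overlapped and did not pass at unadjusted p under 0.05. WT replicate 1 was the lowest kidney library for 6 of the 7 members, and Ctcf+/- replicate 3 the highest for 6. The count of members at unadjusted p under 0.05 went from 3 to 0 without WT replicate 1 and to 0 without WT replicate 3. It was 1 without Ctcf+/- replicate 2, 1 without Ctcf+/- replicate 3, and 0 when all 30 libraries shared 1 estimate of spread. These counts cover all 7 members, so a member counted there need not be 1 of the 3. The share of all genes was not computed for these fits.

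Of 10 macrophage markers listed, 8 were tested in kidney and all 8 had positive differences, 4 of them at unadjusted p under 0.05 and 0 called, among them Mrc1 (0.53), C1qa (0.53) and C1qb (0.44). The summed level of the 10 was 122 to 150 CPM in WT and 158 to 188 in Ctcf+/- kidney, without overlap. Vsig4 and Clec4f, markers of resident macrophages of other organs, were near 0. Dendritic cell markers were positive in 5 of 7, 0 at unadjusted p under 0.05, with sums of 15.2 to 17.5 CPM in WT and 15.4 to 20.5 in Ctcf+/- kidney. B cell markers were positive in 2 of 9, and their sum was 6.24 to 13.2 CPM in WT and 7.39 to 9.87 in Ctcf+/- kidney. Class I genes were positive in 6 of 8, 1 at unadjusted p under 0.05, with sums of 886 to 1038 CPM in WT and 1040 to 1150 in Ctcf+/- kidney. The part of these genes and cells in the kidney values was not tested. In the class II pathway beyond the members, 33 of 34 listed genes were tested in kidney and 0 called, with 4 at unadjusted p under 0.05 and positive, among them Cd80 (1.62, a costimulator, at 0.04 to 0.169 CPM), Ctss (0.36, the cathepsin that trims Cd74) and Spi1 (0.34, a myeloid and B cell transcription factor). Jak2 was at unadjusted p under 0.05 and negative (-0.23). The pathway genes named here were singled out after their values were seen.

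**Figure D4:**
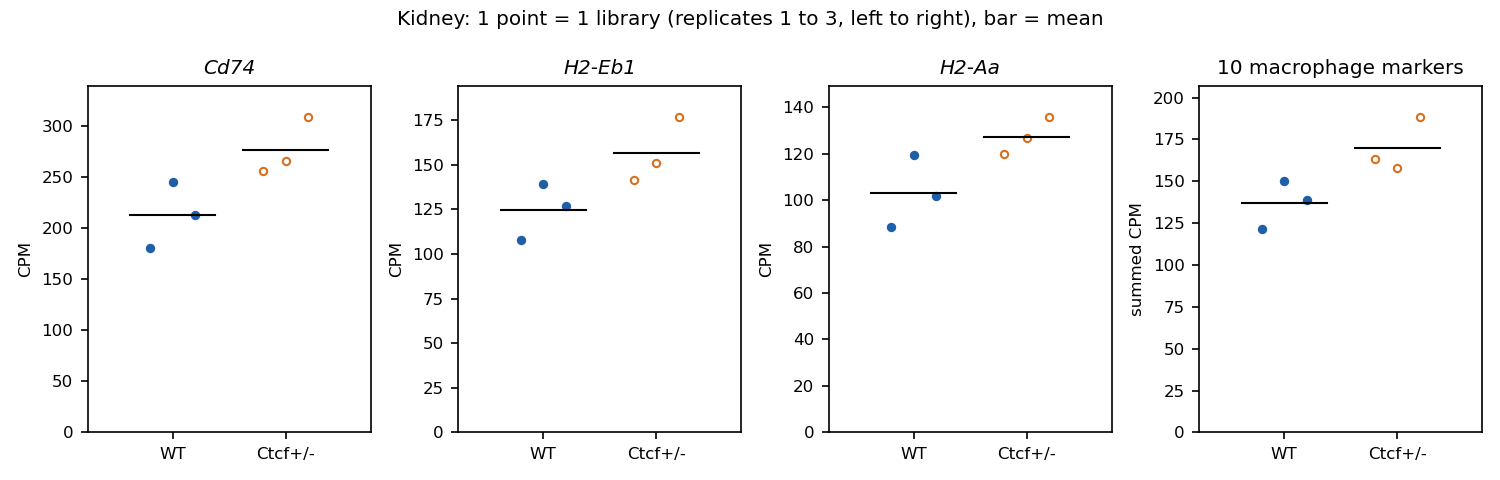
Kidney levels of Cd74, H2-Eb1 and H2-Aa (CPM) and the summed CPM of 10 macrophage markers, 1 point per library with bars at the means of 3. Ctcf+/- libraries lie above WT in each panel, by under 1 CPM for H2-Aa, and Ctcf+/- replicate 3 is highest throughout.

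Spleen, where the genes are most abundant, split by library rather than by genotype. H2-Aa read 1426, 916 and 1279 CPM in WT and 971, 1206 and 909 in Ctcf+/- spleen. Cd74 read 4217, 2736 and 3559 CPM, then 2719, 3958 and 2557. The groups overlapped for both, with log2 differences of -0.22 (95% interval -0.79 to 0.36) for H2-Aa and -0.17 (-0.87 to 0.52) for Cd74. Ciita had another order of libraries, with 84.8, 127 and 137 CPM in WT and 143, 73.8 and 131 in Ctcf+/- spleen, a difference of 0.01 (-0.68 to 0.70). WT replicate 1 was thus highest of the 6 for 6 of the 7 members and second lowest for Ciita, and Ctcf+/- replicate 2 was lowest for Ciita and above the mean for the other 6. WT replicate 3 was above the mean for H2-Aa, Cd74 and Ciita alike. No member separated the genotypes (0 of 7, against 6.64% of all genes in either direction).

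Rfx5, the DNA-binding subunit of RFX, followed Ciita: 17.4, 33.4 and 41.5 CPM in WT and 35.1, 15.1 and 42.1 in Ctcf+/- spleen. Ptprc, a surface protein of all leukocytes, was also lowest in the same pair of libraries (646 and 624 CPM, against 953 to 1096). Summed T cell markers (733 and 857 CPM, against 536 to 647) and class I genes (6516 and 7179, against 5169 to 6017) were highest in them. B cell marker sums were 3473 to 4616 CPM in WT and 3191 to 3765 in Ctcf+/- spleen, and those of dendritic cells 74.6 to 113 and 82.4 to 98.8. By genotype, B cell markers were negative in 9 of 9, T cell markers positive in 6 of 6 and class I genes positive in 8 of 8. Dendritic cell markers were positive in 3 of 7 and macrophage markers in 4 of 9. Of all these, 0 were at unadjusted p under 0.05, and their part in the spleen values was not tested. Rfxap and Rfxank, the partner subunits of Rfx5, did not follow Ciita. Rfxank was at 15.1 and 15.4 CPM in those 2 libraries and 10.6 to 12.1 in the other 4, and Rfxap at 19.7 and 18.5 against 12.7 to 16.5. Both libraries also differed from the rest over all genes by transcript length. Rfx5 has more exonic bases than Rfxap and Rfxank, and the part of length in the levels of these RFX subunits was not tested. Set as medians of the log2 deviation from the tissue mean, long genes (at least 6023 exonic bases) minus short genes (at most 2317) gave -0.45 in WT replicate 1 and -0.54 in Ctcf+/- replicate 2. The other 4 libraries gave 0.17 to 0.40. With 5254 exonic bases Ciita lies between these bounds, and the other 6 members are among the short genes. The same measure was -0.27 in Ctcf+/- kidney replicate 3, highest for 6 of 7 members there, and 0.22 in WT liver replicate 3, lowest for all 7. It was also -0.22 in WT muscle replicate 1, the most negative of the muscle libraries, where H2-Aa and H2-Ab1 were second lowest and Ciita lowest. Its part in these values was not tested. Without both spleen libraries, which left 2 against 2 and was tried after the values were seen, 0 of 7 members were called, and the differences were -0.20 for H2-Aa, -0.23 for Cd74 and 0.06 for Ciita.

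**Figure D5:**
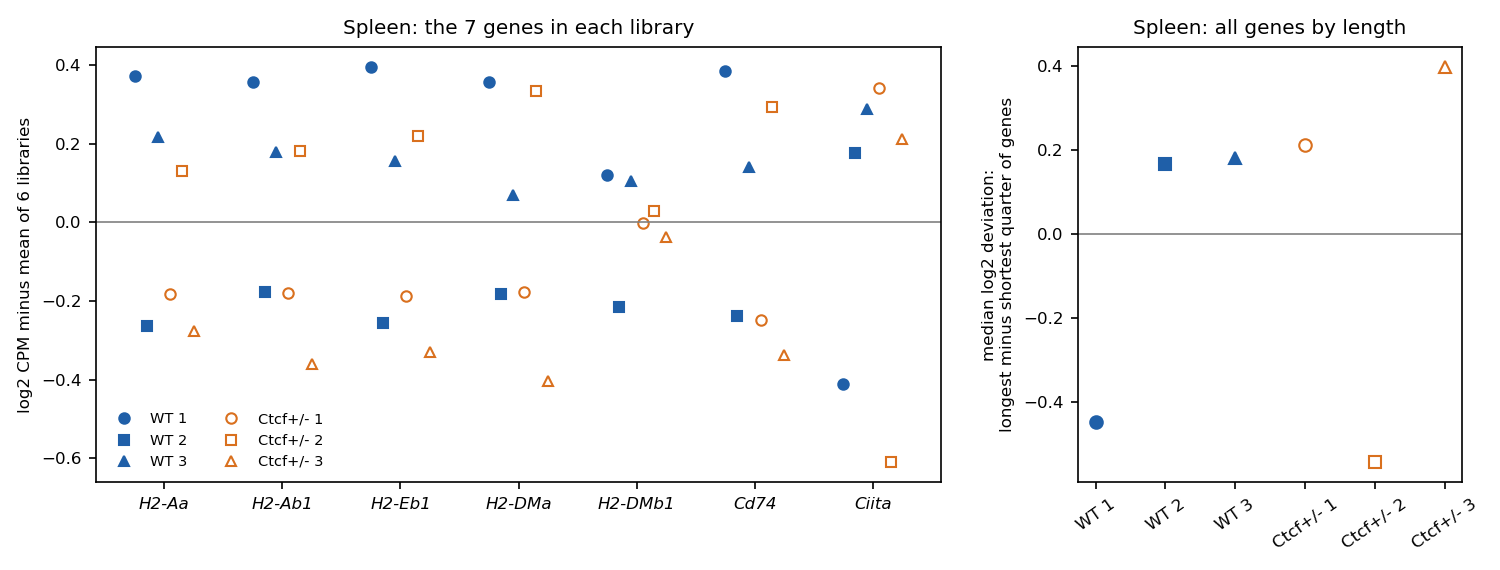
Left, log2 CPM of each member minus its mean over the 6 spleen libraries; right, the median deviation of long genes (at least 6023 exonic bases) minus that of short genes (at most 2317), per library (log2). Filled symbols are WT and open symbols Ctcf+/- libraries; WT 1 and Ctcf+/- 2 are above 0 for 6 members, below 0 for Ciita, and lowest on the right.

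In liver, 6 of 7 members had negative differences, with a median of -0.33 against -0.01 over 15584 genes, and 0 separated the groups (8.99% of all genes did). Cd74 read 113, 130 and 135 CPM in Ctcf+/- liver, inside the range of the WT values given above. The interval of its difference ran from -0.90 to 0.23. H2-DMa had the largest difference, -0.44 (-1.11 to 0.22), and Ciita the only positive one, 0.05. WT replicate 3, the lowest liver library, shifted all 7 differences upward. Without it the differences were -0.72 for H2-DMa, -0.62 for H2-Eb1, -0.60 for H2-Aa, -0.60 for H2-Ab1, -0.58 for Cd74, -0.38 for H2-DMb1 and -0.09 for Ciita. In that fit 5 of 7 were at unadjusted p under 0.05 and 0 called. The share of all genes at that p was not computed there. Macrophage markers were negative in 10 of 10, with Cd163 (-1.40) and Mrc1 (-0.47) at unadjusted p under 0.05 and 0 called, and their sums overlapped at 689 to 1235 CPM in WT and 746 to 878 in Ctcf+/- liver. B cell markers were negative in 9 of 9, at 19.5 to 26.2 and 15.6 to 19.6 CPM. T cell markers were negative in 6 of 6. Class I genes went the other way, positive in 8 of 8 with 1 at unadjusted p under 0.05. Dendritic cell markers were positive in 4 of 7 and microglial markers in 3 of 4. The part of these genes and cells in the liver values was not tested.

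In muscle, all 7 differences were positive, with a median of 0.36 against -0.01 over 16064 genes, and 0 members separated the groups (12.2% of all genes did). H2-Ab1 read 18.3, 25.9 and 11.98 CPM in WT and 26.6, 27.5 and 21.9 in Ctcf+/- muscle, a difference of 0.42 (95% interval -0.16 to 0.996). Without WT replicate 2 it was 0.72, H2-Aa had 0.72 and H2-Eb1 0.60, with 0 called. WT replicate 3 was lowest for 6 of the 7 members. Ciita read 0.326, 0.555 and 0.382 CPM, then 0.721, 0.524 and 0.413 (0.37, -0.47 to 1.21). Macrophage markers were positive in 7 of the 8 tested, 3 at unadjusted p under 0.05, with sums of 72.2 to 100.5 CPM in WT and 72.0 to 124 in Ctcf+/- muscle. Class I genes were positive in 8 of 8, 1 at unadjusted p under 0.05, with sums of 334 to 528 CPM in WT and 561 to 576 in Ctcf+/- muscle, without overlap. Dendritic cell markers were positive in 5 of 7 and T cell markers in 2 of the 3 tested. B cell markers were negative in 4 of the 6 tested. The part of these genes and cells in the muscle values was not tested. Irf4, a factor of B cells and dendritic cells, had a difference of 1.54 (adjusted p 0.276, edgeR) at 0.373 to 1.60 CPM, and with Ctsl (0.31) it was 1 of 2 among 29 pathway genes tested in muscle at unadjusted p under 0.05. Both were singled out after their values were seen.

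In brain, the 7 differences were between 0.07 (H2-DMa) and 0.18 (H2-Aa), with a median of 0.11 against -0.00 over 19166 genes, and 0 separated the groups (7.83% of all genes did). H2-Aa read 1.54, 1.866 and 1.82 CPM in WT and 2.26, 1.871 and 2.09 in Ctcf+/- brain, with an interval of -0.15 to 0.52. On this scale its Ctcf+/- values lie just above the WT values, and on the scale of the brain fit, which the count of separated genes uses, they overlap. The 4 microglial markers summed to 126 to 132 CPM in brain, and to 144 to 161 in kidney, so they do not mark microglia alone. Brain held B cell markers at 1.63 to 2.25 CPM in sum.

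The remaining class II loci and the promoter factors had their own patterns over tissues. H2-DMb2, the second H2-DM beta gene, read 264 ± 30.8 CPM in spleen (SD, n = 6) and 1.59 ± 0.17 in kidney, and H2-DMb1 in the same libraries 93.2 ± 7.62 and 15.5 ± 2.05. H2-Oa and H2-Ob, whose product restrains H2-DM in B cells, were at 54.9 and 430 CPM in spleen and at most 0.822 and 3.64 in any library of another tissue. H2-Eb2 was at 44.2 CPM in spleen and at most 0.238 elsewhere. H2-Ea-ps, the E alpha locus that this strain does not express, had 0 counts in all kidney, liver and muscle libraries, which allows up to 3 counts in each, and at most 0.0803 CPM in spleen. Rfxap had its highest mean in muscle (37.9 ± 2.08 CPM) and its lowest in kidney (14.2 ± 0.719), and Rfxank its highest in liver (19.0 ± 3.09) and its lowest in brain (6.82 ± 0.522). Ctss ranged from 4.08 in muscle to 319 in spleen, Ifi30, the reductase that unfolds antigens, from 2.13 in brain to 139 in spleen, and Irf1 from 4.56 in brain to 133 in spleen. Spi1 was at 94.1 CPM in spleen and 1.34 in muscle. Over all 34 listed pathway genes, 0 were called for genotype in any tissue: 31, 33, 31, 29 and 33 were tested in brain, kidney, liver, muscle and spleen, with 0, 5, 0, 2 and 0 at unadjusted p under 0.05. Their median differences were 0.00, 0.09, -0.05, 0.13 and -0.02.

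Within groups, most members varied together from library to library, and Ciita did so in some tissues only. After each tissue and genotype group's mean was subtracted, Pearson's r of each member with the mean of the other 6 over 30 libraries was 0.97 for H2-Aa, 0.95 for H2-Eb1, 0.93 for H2-Ab1, 0.92 for Cd74, 0.90 for H2-DMb1, 0.80 for H2-DMa and 0.12 for Ciita. The pooled value of Ciita joins opposite signs: over the 6 libraries of a tissue r was 0.74 in liver and 0.53 in muscle, but -0.48 in brain, -0.49 in kidney and -0.79 in spleen. H2-DMa had 0.0154 in brain and 0.75 to 0.97 elsewhere. These values are descriptions: genes of a library share its depth, its composition and the length effect given above. Among 9398 genes with a mean of at least 1 CPM in every tissue, the 5 most like the mean of the 7 members by the same measure included Laptm5 (r 0.92), Tpst2 (0.88), Trpv2 (0.87) and Gnb1 (0.87). In brain alone, Laptm5, Tpst2 and Trpv2 had a negative r with it (-0.57, -0.41 and -0.11) and Gnb1 had 0.59. The 5 most like Ciita were Elf4 (0.87), Fndc3b (0.84), Wdr13 (0.84), Iqgap1 (0.82) and Sec24d (0.80), and none of them was among the 5 above.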

How the data were processed

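The authors deposited raw fragment counts per gene, made per the file headers with featureCounts 1.5.0-p3 (exons summed per gene, paired fragments, no strand) against an Ensembl release 86 annotation of GRCm38. Per the submitters' processing notes FastQC, STAR and DESeq2 were also used; the aligner's version is not given in the sources used here. RNA had an integrity number over 7, per the labels. The deposited length column, a number in no expression unit, gave CPM per kilobase.

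Counts were tested with edgeR 4.0.16 in R 4.3.3 (TMM, filterByExpr, quasi-likelihood F-test, Benjamini-Hochberg over all genes tested; a standard error is the log2 difference over the root of F). Alternatives used DESeq2 1.42.0, limma-voom 3.58.1, other scalings and filters, a replicate block and libraries left out. Ratios were tested by exact permutation (scipy 1.17.1). Levels use TMM factors of the 30 libraries; within a tissue these and the tissue's own factors can differ slightly. The functions were tested on simulated data. Members and lists were chosen with earlier results of these data known. Named genes were the 7 members, 12 pathway genes by level, any pathway gene called, and the genes most like the members. Some genes that fall under these rules are not reported here.

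Between WT and Ctcf+/- libraries with the same replicate number, deviations correlated at 0.119 to 0.401 for brain and 0.164 to 0.245 for kidney. Liver values were lower but also positive, at 0.0725 to 0.195, as were those of muscle, at 0.0232 to 0.122. Only spleen was mixed, with -0.384, -0.184 and 0.416 for replicates 1, 2 and 3. Brain Ctcf+/- replicate 1 correlated more with WT replicate 2 (0.154) than with WT replicate 1 (0.119). WT and Ctcf+/- libraries come from different animals, so these values do not show which libraries share an animal. Whether replicate numbers mark pairs was not tested. Chi-square per degree of freedom between replicates was 15.4 to 640, far above sampling noise, so each library counted as 1 sample.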

Additional observations from a re-analysis of the deposited data

How the results depend on the processing

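Of the counts of called members, 192 recomputed values stayed within 1.5 times and 2 moved further. Kidney above liver went from 4 to 7 members with total counts and to 7 in the Ctcf+/- libraries. The share of all genes was not computed for these 2 settings. For genotype, 0 members were called in every tissue under every alternative run, the replicate block included (0 called), with the lowest adjusted p 0.220 in liver, 0.276 in kidney, 0.291 in muscle, 0.767 in spleen and 0.910 in brain. Directions of members that were not called in the main fit turned as follows, on the log2 scale. The cause was not tested beyond the change of scaling or samples. In spleen, H2-DMb1 read -0.0250 with DESeq2, -0.0194 with DESeq2 size factors, -0.0061 with a 1-count filter and -0.0143 in the fit of 30 libraries, and Ciita -0.0175, -0.0113 and -0.0101 with the same tools and the 30 libraries, -0.0244 with limma-voom and -0.0213 with the replicate block. Between WT brain and WT liver, H2-DMa read 0.0098 with limma-voom, 1.04 with total counts, 0.0997 with at least 10 counts in every library and 0.39 in the Ctcf+/- libraries. Between WT brain and WT muscle, Ciita read 0.0281, 1.26 and 0.23 with limma-voom, total counts and the 10-count filter and 0.0048 with the block, and H2-DMb1 0.59 with total counts. Some alternatives passed the threshold. The lowest adjusted p over them (edgeR or limma-voom) was 0.00075 for H2-DMa between brain and liver and 0.000748 for Ciita between brain and muscle. With single libraries left out, the genotype difference ran from -0.0765 to 0.29 for Cd74 and -0.0057 to 0.23 for H2-Eb1 in brain, -0.0210 to 0.18 for H2-DMa in kidney, -0.38 to 0.17 for H2-DMb1 and -0.10 to 0.20 for Ciita in liver, and -0.0311 to 0.25 for H2-DMa and -0.0730 to 0.60 for H2-DMb1 in muscle. In spleen it ran from -0.38 to 0.0358 for H2-DMa, -0.40 to 0.0016 for Cd74, -0.17 to 0.25 for Ciita and -0.11 to 0.0753 for H2-DMb1. Among WT tissue pairs it ran from -0.39 to 0.23 for H2-DMa and from -0.17 to 0.27 for Ciita (brain against liver and against muscle), and from -0.20 to 0.42 for H2-DMa in kidney against liver. Depth limits Ciita most, with 31 to 96 counts per brain library and 21 to 45 per muscle library. The replicate block changed no genotype call. In muscle it took the members at unadjusted p under 0.05 from 0 to 4, and the share of all genes with the block was not computed.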
